A study of Mus musculus with 6 samples.

Results

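Cyclins and cyclin-dependent kinases were examined in YUMM3.3 melanoma tumors from mice given rigosertib (RGS) or vehicle. The genes were taken by name: protein-coding rows whose symbol is Ccn or Cdk followed by a member letter or number, which gave 45 of the 40166 genes in the table, 26 with a Ccn name and 19 with a Cdk name. By their known roles, 14 were phase-specific members that act at one stage of the division cycle, 15 were transcriptional members that act on RNA polymerase II or RNA processing, and 16 were neither. *Ccndbp1* matched by name although its product binds cyclin D and is not a cyclin. All 6 tumors grew from YUMM3.3 cells, a mouse melanoma line with mutant *Braf* and no *Cdkn2a*, injected under the skin of C57BL/6 mice. The labels give no age or sex for these mice. The 3 vehicle tumors (numbered 7, 8 and 9) came from mice given water by gavage, and the 3 RGS tumors (10, 11 and 12) from mice given 300 mg/kg of RGS, a small molecule described as a RAS mimetic, both for 17 days. Each is a bulk sample, which the paper describes as holding tumor, stromal and immune cells, though leukocyte markers were nearly absent (given below). In bulk RNA, fewer dividing cells and less RNA per cell cannot be told apart. The labels do not say in words that each tumor came from its own mouse, so p-values measure the spread between these 6 samples.

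A cyclin-dependent kinase is nearly inactive alone and is switched on by binding a cyclin. D cyclins with Cdk4 or Cdk6 begin the phosphorylation of the retinoblastoma protein in G1, E and A cyclins with Cdk2 carry the cell into and through S phase, and A and B cyclins with Cdk1 drive entry into mitosis. A separate branch serves transcription. Cyclin H with Cdk7 activates other kinases and phosphorylates RNA polymerase II, cyclin C with Cdk8 or Cdk19 sits in the Mediator kinase module, and cyclin T with Cdk9 forms P-TEFb, which releases paused polymerase. In melanoma the G1 step is well known for loss of *CDKN2A*, the gene of the Cdk4 and Cdk6 inhibitor p16, and for gain of *CCND1* or *CDK4*.

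Elements known from promoters of cell cycle genes were searched for in the bases before the start of the members. The elements searched on both strands were the CHR, which is bound by the MuvB complex (TTTGAA and the variant TTCGAA), the CCAAT box, named for its letters, and 4 forms of the E2F site. These were TTCCCGC as the first form, TTCGCGC as the next, TTGGCGC after that and TTGCCGC as the last. RefSeq promoters on GRCm38.p6 were matched for 36 of the 45 members, and the search covered the 250 bases before the first start listed for each gene. Bases after the start were not searched, so an element there would be missed. *Ccnd1*, *Ccna2* and *Ccne2*, which fell in RGS tumors, had no matched promoter and were not searched. The 3 mitotic members with the CHR and *Cdk2*, with an E2F site next to its start, are shown 5′ to 3′ on the strand of the gene, with the elements in capitals. The minus-strand windows are chr10:69352913-69353162 for *Cdk1*, chr9:70421555-70421804 for *Ccnb2*, chr17:24251410-24251659 for *Ccnf* and chr10:128705052-128705301 for *Cdk2*.
Cdk1: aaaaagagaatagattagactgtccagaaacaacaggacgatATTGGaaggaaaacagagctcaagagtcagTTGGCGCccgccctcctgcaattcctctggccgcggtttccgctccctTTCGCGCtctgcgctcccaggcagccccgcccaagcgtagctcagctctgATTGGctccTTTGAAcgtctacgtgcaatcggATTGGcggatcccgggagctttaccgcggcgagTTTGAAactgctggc
Ccnb2: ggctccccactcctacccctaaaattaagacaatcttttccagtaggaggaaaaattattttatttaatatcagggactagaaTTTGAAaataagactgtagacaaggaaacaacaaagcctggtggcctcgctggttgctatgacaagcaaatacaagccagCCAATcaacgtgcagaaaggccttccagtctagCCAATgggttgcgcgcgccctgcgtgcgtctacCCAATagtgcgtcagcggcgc
Ccnf: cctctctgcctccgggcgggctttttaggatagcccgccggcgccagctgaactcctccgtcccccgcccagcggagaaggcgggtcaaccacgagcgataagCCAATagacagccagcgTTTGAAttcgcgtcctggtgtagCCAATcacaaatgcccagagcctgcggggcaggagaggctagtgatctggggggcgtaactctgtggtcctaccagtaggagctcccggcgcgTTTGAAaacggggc
Cdk2: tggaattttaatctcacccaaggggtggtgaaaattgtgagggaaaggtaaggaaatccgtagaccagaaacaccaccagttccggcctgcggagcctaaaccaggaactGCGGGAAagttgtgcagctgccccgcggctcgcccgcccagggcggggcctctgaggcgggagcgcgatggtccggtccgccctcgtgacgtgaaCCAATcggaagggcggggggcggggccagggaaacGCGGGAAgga

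The *Cdk1* window holds a CHR 15 to 10 bases before the start, another at 71 to 66, 3 CCAAT boxes and 2 E2F forms. In *Ccnb2*, the only CHR match lies 167 to 162 bases before the start, upstream of all 3 CCAAT boxes. In *Ccnf* there are 2 CHR matches and 2 CCAAT boxes. *Cdk2* has the E2F form TTCCCGC on the other strand at 10 to 4 and at 140 to 134 bases, and 1 CCAAT box. The *Ccnb1* window, not printed, holds 2 CCAAT boxes, 1 of which shares bases with an E2F form. The CHR was found in 3 of 10 matched phase-specific members, in 0 of 13 transcriptional members and in 2 of 13 others. Over all 36 matched members the share was 13.9%, against 17.1% of all 32851 promoters in the table. The CCAAT box was found in 6 of 10 phase-specific and 6 of 13 transcriptional members, against 33.8% of all promoters, and an E2F form in 3 of 10 and 1 of 13, against 7.89%. These letters are matches only, and *Ccnf*, with 2 CHR matches, was not among the members that fell.

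RNA was counted per gene, with between 13837932 and 32555494 counts per tumor, the RGS libraries being shallower (at most 21617368) than the vehicle libraries (at least 22793087). Mitochondrial genes took 2.13 to 3.20% of counts in vehicle tumors and 5.60 to 8.22% in RGS tumors, and ribosomal protein genes 5.12 to 9.37% and 2.81 to 3.31%. Of 8 leukocyte markers, *Ptprc*, *Cd3e*, *Cd8a*, *Ms4a1* and *Adgre1* had 0 counts in all 6 libraries, and the summed level of the 8 was 0 to 0.439 TPM (counts per gene length, scaled to the same sum in each tumor) in vehicle and 0.0301 to 0.130 TPM in RGS tumors. Of 7 melanocytic markers, *Tyr*, *Dct* and *Mlana* had 0 counts in all 6, *Sox10* had counts in 1 library alone, and the sum was 2.59 to 4.77 against 1.95 to 5.24 TPM, so the defining markers of the labelled tumor tissue were nearly absent. The sum of 6 fibroblast markers was 68.7 to 113 against 47.2 to 57.4 TPM, that of 6 endothelial markers 0.929 to 1.47 against 2.67 to 7.31 TPM, that of 6 keratinocyte markers 0.692 to 2.39 against 10.8 to 31.7 TPM and that of 5 muscle markers 5.68 to 9.18 against 2.77 to 5.77 TPM. Within these lists genes moved apart. *Ivl* had 0 counts in vehicle and 9.49 to 27.2 TPM in RGS tumors and made most of the keratinocyte sum there. *Krt5* had 2 counts in vehicle 9 alone and *Krt14* 1 count in vehicle 8 alone, and neither was tested. In the fibroblast list, *Dcn* rose 9.44-fold (edgeR adjusted p = 6.23e-05) from a low level, and *Col1a1* did not pass the test. *Pdgfra*, *Pdgfrb* and *Col3a1* fell (log2 fold change -0.70, -2.20 and -0.90, edgeR adjusted p = 0.00312, 1.79e-04 and 0.00504). *Pdgfra* made most of the fibroblast sum, at 46.6 to 78.1 TPM in vehicle and 25.7 to 37.8 TPM in RGS tumors. *Des* of the muscle list had 0 counts in vehicle and 5 to 24 counts in RGS tumors. *Lum*, *Emcn*, *Krt1*, *Ckm* and *Myh4* of these lists were at 0 in all 6. The part of depth, of mitochondrial RNA and of these cell markers in the results was not tested. With all libraries thinned to the smallest, or with mitochondrial genes left out, the counts of members called were again 12 lower and 3 higher. The latter step took the tested genes from 15355 to 15332 only. The differences in mitochondrial RNA and in cell markers run along with treatment, and neither step can separate them from it.

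RGS tumors had lower RNA of most of the cyclins and kinases that drive S phase and mitosis, while the transcriptional members gave mixed results. The tumors were sequenced to survey the response to RGS, and the comparison here was between RGS and vehicle tumors for each member, with the phase-specific and transcriptional branches side by side. With edgeR's quasi-likelihood test across 15355 genes and Benjamini-Hochberg adjustment, a gene was called at an adjusted p under 0.05. Of 42 members tested, 12 fell (28.6%) and 3 rose (7.14%), where 16.5% of all tested genes fell, 16.3% rose and 32.8% moved either way. The median log2 fold change, RGS over vehicle, was -0.000648 over the members and -0.05 over all genes. The 13 phase-specific members tested differed from this with 7 lower (53.8%), 0 higher and a median of -0.90. No phase-specific member rose at an unadjusted p under 0.05 either, and DESeq2 and limma voom also called 0 higher. The 15 transcriptional members had 4 lower, 1 higher and a median of 0.03, and the 14 others had 1 lower, 2 higher and a median of 0.15. The difference between these groups is given as counts, since genes of 1 pathway are not independent. A call with at least a 2-fold fall was made for 6 of the 42 members, 5 of them phase-specific and the other *Ccng1*, against 9.44% of all genes. The values of the RGS and vehicle tumors did not overlap for 17 members (40.5%), against 45.8% of all genes in either direction. They did not overlap for 8 of the 13 phase-specific members (61.5%), in each case with RGS lower. In that direction 3691 of the 15355 tested genes did not overlap. Without vehicle 8, vehicle 9 or RGS 11, only *Ccny* of the 3 rises remained. Scaled by library size only, 16 members fell and 1 rose, the median over all genes was -0.19, and 62.8% of all called genes were lower, against 50.3% with TMM factors.

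**Figure D1:**
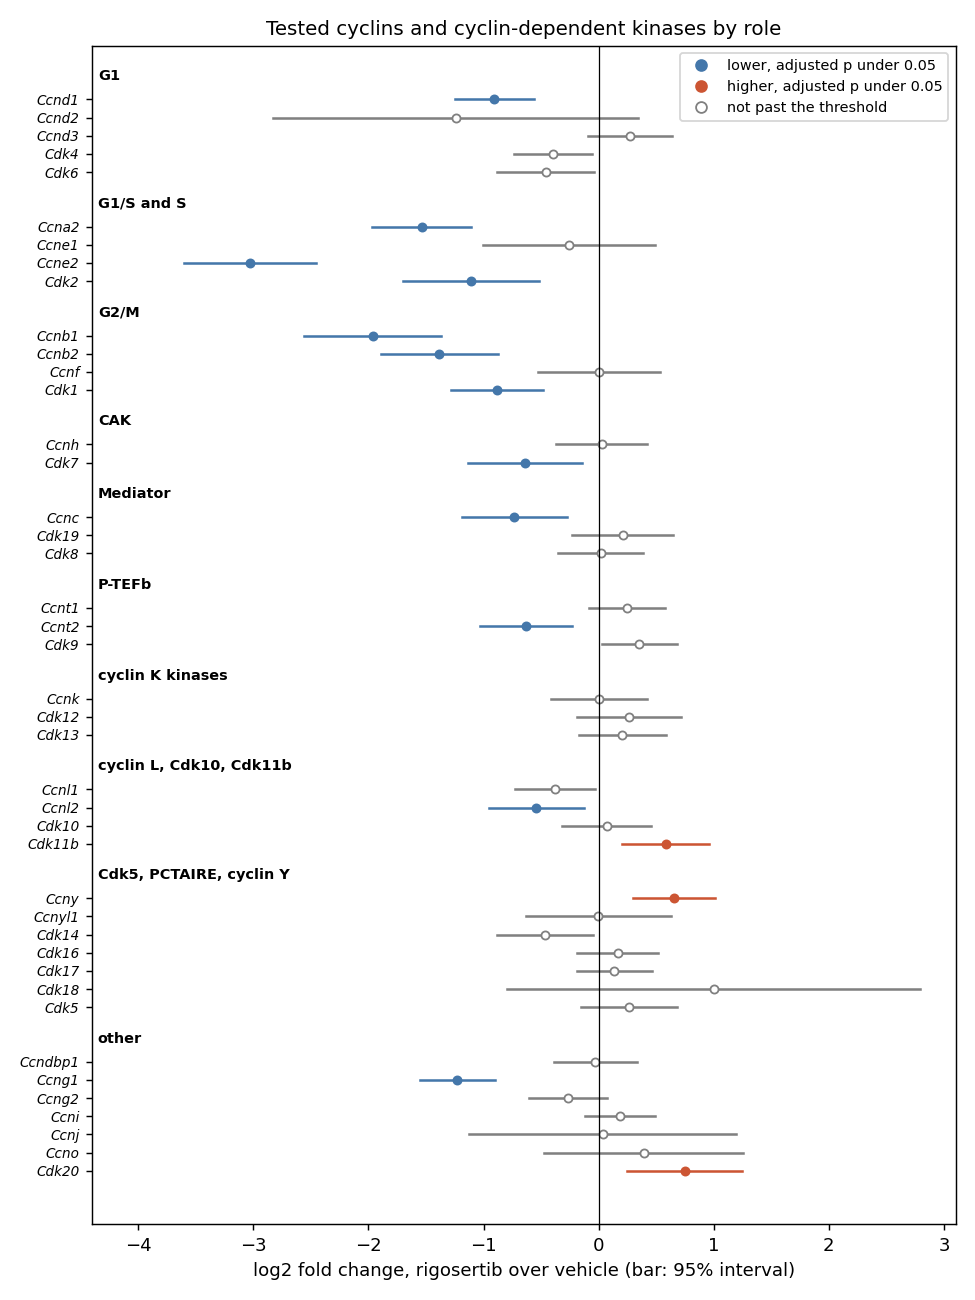
Log2 fold change (x axis, RGS over vehicle) of the 42 tested members, grouped by role, each with its 95% interval. Filled points passed an adjusted p under 0.05. The points of the G1/S and S and of the G2/M groups lie left of 0 except *Ccnf*, whose sign depends on the scaling, and no phase-specific member is marked as higher.

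Among the G1 members, which answer growth signals, *Ccnd1* fell and the others did not pass the test. Levels are given as CPM, edgeR's depth-scaled counts with TMM factors. *Ccnd1* (cyclin D1, chr7:144929931-144939925) was at 703, 581 and 505 CPM in vehicle tumors 7, 8 and 9 and at 360, 322 and 273 CPM in RGS tumors 10, 11 and 12. The lowest vehicle tumor stood above the highest RGS tumor. This was a 1.87-fold fall, a log2 fold change of -0.90 (SE 0.17, edgeR adjusted p = 3.46e-04). Its relatives did not pass the test, and no difference in response between D cyclins was tested. *Ccnd3* (cyclin D3) was at 72.6, 61.8 and 62.1 CPM in vehicle and at 70.02, 71.6 and 95.3 CPM in RGS tumors, a log2 fold change of 0.27 with a 95% interval of -0.10 to 0.64. The groups overlapped, and the RGS tumor 12 was the highest of all 6. *Ccnd2* (cyclin D2) was low throughout, with 4.77, 3.24 and 3.65 CPM in vehicle and 3.55, 1.13 and 0.184 CPM in RGS tumors. It had a log2 fold change of -1.24 (SE 0.76, edgeR adjusted p = 0.224), with a 95% interval of -2.83 to 0.35 that holds the value of *Ccnd1*. Without RGS tumor 10, the highest of its group, the value of *Ccnd2* was -2.59 (edgeR adjusted p = 0.0307).

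The makeup of the D cyclins shifted, as seen per length. *Ccnd1* supplied 93.5 to 94.4% of the summed TPM of *Ccnd1*, *Ccnd2* and *Ccnd3* in vehicle tumors and 84.2 to 90.2% in RGS tumors. *Ccnd3* supplied 5.24 to 6.17% and 9.40 to 15.8%. The ranges of both shares did not overlap between groups, and *Ccnd1* was the most abundant D cyclin in each tumor.

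The kinases of the G1 step were lower in mean without passing the test. *Cdk4* was at 253, 291 and 353 CPM in vehicle and 199, 236 and 246 CPM in RGS tumors. The groups did not overlap, though vehicle 7 and RGS 12 lay close, and the log2 fold change was -0.40 (SE 0.16, edgeR adjusted p = 0.0678). Without vehicle tumor 7, the lowest of its group, the value was -0.51 and passed (edgeR adjusted p = 0.00476), as it did under limma voom (adjusted p = 0.0103). *Cdk6* was at 53.1, 46.7 and 36.5 CPM in vehicle and 37.3, 28.0 and 33.7 CPM in RGS tumors, with overlap between vehicle 9 and RGS 10. Its log2 fold change was -0.46 (edgeR adjusted p = 0.0845), and without vehicle tumor 9 it was -0.59 (edgeR adjusted p = 0.0467). Per length, *Cdk4* stood at 299 ± 18.1 TPM in vehicle and 201 ± 10.1 TPM in RGS tumors (SD, n = 3 each), far above *Cdk6* at 10.8 ± 3.1 and 6.83 ± 1.30 TPM (SD, n = 3 each).

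Members of the G1/S transition and S phase held the largest fall of all members. *Ccne2* (cyclin E2, chr4:11191351-11204779), a partner of Cdk2 at the start of DNA replication, was at 25.4, 36.6 and 42.1 CPM in vehicle tumors and at 3.79, 5.05 and 3.98 CPM in RGS tumors. The groups were separated by a wide gap, with the RGS tumors close to each other. It fell 8.15-fold, a log2 fold change of -3.03 (SE 0.27, edgeR adjusted p = 1.47e-07). *Ccne1* (cyclin E1), its close relative, was at 9.79, 10.4 and 14.1 CPM in vehicle and 4.92, 14.01 and 9.85 CPM in RGS tumors. These ranges overlapped, RGS tumor 11 matched the highest vehicle tumor, and the log2 fold change was -0.26 with a 95% interval of -1.005 to 0.49. *Ccna2* (cyclin A2, chr3:36564865-36572150), which serves Cdk2 in S phase and Cdk1 later, was at 48.6, 42.4 and 42.5 CPM in vehicle and at 17.4, 13.3 and 15.2 CPM in RGS tumors. Both groups were tight and far apart, and the fall was 2.90-fold (log2 fold change -1.54, SE 0.21, edgeR adjusted p = 1.52e-05). Their kinase *Cdk2* (chr10:128697939-128705031) was at 28.4, 26.2 and 30.2 CPM in vehicle and at 11.9, 19.7 and 7.89 CPM in RGS tumors. It fell 2.15-fold (log2 fold change -1.11, SE 0.28, edgeR adjusted p = 0.00529), with more spread among the RGS tumors than among the vehicle tumors. *Ccna1* (cyclin A1), known from the male germ line, had 0 counts in all 6 tumors, where 3 counts would have been 0.0856 to 0.226 CPM.

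The mitotic members *Ccnb1*, *Ccnb2* and *Cdk1* all fell. *Ccnb1* (cyclin B1, chr13:100778650-100786570), the main partner of Cdk1, was at 49.2, 67.5 and 67.5 CPM in vehicle and at 8.85, 24.9 and 13.9 CPM in RGS tumors. Even RGS tumor 11, the highest of its group, stayed below each vehicle tumor. The fall was 3.89-fold (log2 fold change -1.96, SE 0.28, edgeR adjusted p = 3.40e-05). *Ccnb2* (cyclin B2, chr9:70407692-70421547) was at 27.5, 28.8 and 22.1 CPM in vehicle and 8.90, 10.2 and 11.01 CPM in RGS tumors, a 2.61-fold fall (log2 fold change -1.38, SE 0.24, edgeR adjusted p = 2.34e-04). *Cdk1* (chr10:69335146-69352938), the kinase of mitotic entry, was at 77.4, 102 and 107 CPM in vehicle and at 45.9, 44.4 and 65.2 CPM in RGS tumors, a 1.84-fold fall (log2 fold change -0.88, SE 0.19, edgeR adjusted p = 0.00154). The groups overlapped for neither gene. *Ccnf* (cyclin F) is the substrate-binding part of a ubiquitin ligase and activates no known kinase. It was at 14.6, 16.5 and 13.6 CPM in vehicle and 13.4, 15.1 and 16.4 CPM in RGS tumors, and its log2 fold change was 0.00 with a 95% interval of -0.52 to 0.53. Its promoter, printed above, held CHR and CCAAT matches, as did that of *Ccnb2*.

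**Figure D2:**
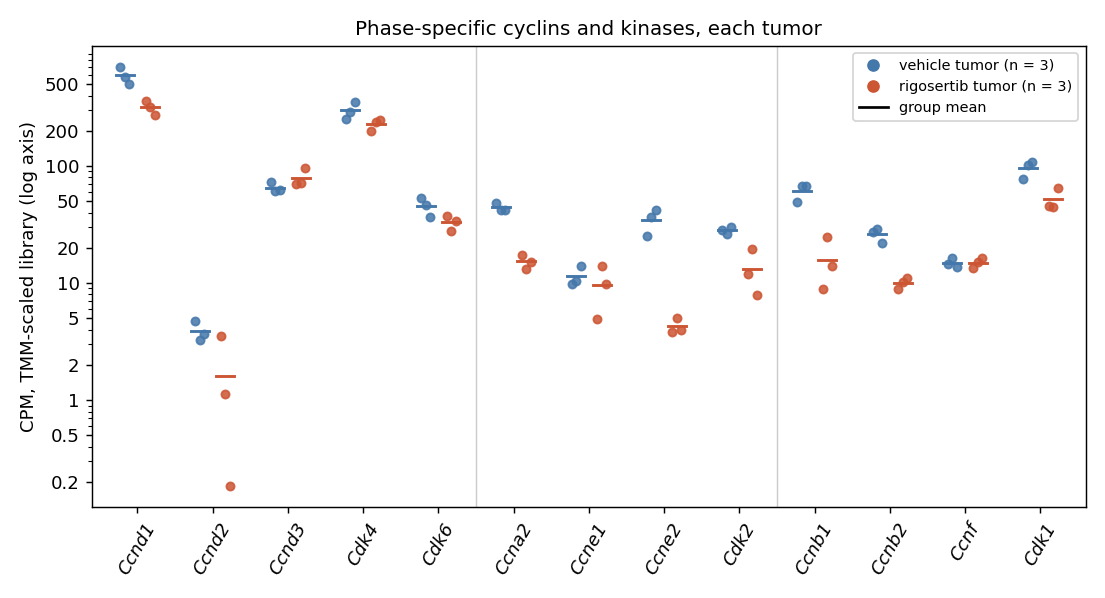
CPM (log axis) of the 13 tested phase-specific members in each tumor, with vehicle and RGS tumors in separate colors (n = 3 each) and a bar at the group mean. Gray lines part the G1, the G1/S and S, and the G2/M members. *Ccnd1*, *Ccna2*, *Ccne2*, *Cdk2*, *Ccnb1*, *Ccnb2* and *Cdk1* show RGS points below all vehicle points, as does *Cdk4*, which did not pass the test.

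Genes on the opposite strand share exon bases with several of these members, and the strand setting of the counting is not given in the sources used here. *Ccnd1* shares 1100 exon bases with *Oraov1* (333 to 540 counts per tumor, against 4276 to 24624 for *Ccnd1*), which rose (log2 fold change 0.78, edgeR adjusted p = 0.0153). *Ccnd3* shares 361 bases with *Bysl* (426 to 907 counts, against 951 to 2544), which rose as well (0.59, edgeR adjusted p = 0.0440). *Ccna2* shares 510 bases with *Exosc9* (509 to 1764 counts, log2 fold change -0.31, edgeR adjusted p = 0.236), and *Ccne2* shares 609 with *Ints8* (561 to 1454 counts, 0.32, edgeR adjusted p = 0.202). *Cdk4* shares 641 bases with *Tspan31* (1582 to 3585 counts, -0.06, edgeR adjusted p = 0.822).

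The transcriptional members gave 4 falls and 1 rise, none as large as 2-fold, and these calls were less steady. Leaving out 1 tumor at a time moved the number that fell to between 0 and 5, with 0 without vehicle 8, 1 without vehicle 9, 1 without RGS 10, 3 without RGS 11, 2 without RGS 12 and 5 without vehicle 7. The 1 rise was lost without vehicle 8, vehicle 9, RGS 11 or RGS 12. In the same omissions 7 or 8 phase-specific members fell.

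*Cdk7*, which activates other cyclin-dependent kinases, was at 46.2, 65.5 and 95.02 CPM in vehicle and at 33.05, 46.0 and 53.5 CPM in RGS tumors. It fell 1.56-fold (log2 fold change -0.64, SE 0.24, edgeR adjusted p = 0.0435), although vehicle 7 lay within the range of the RGS tumors. Without vehicle 9 the value was -0.34 (edgeR adjusted p = 0.297), and the call was also lost without vehicle 8, RGS 10 or RGS 11. Its cyclin *Ccnh* was at 37.5 to 44.3 CPM in vehicle and 36.3 to 49.5 CPM in RGS tumors, with a 95% interval of the log2 fold change of -0.37 to 0.42.

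In the Mediator kinase module the cyclin moved and its kinases did not pass the test. *Ccnc* (cyclin C) was at 28.9, 40.1 and 44.6 CPM in vehicle and at 19.5, 26.2 and 22.9 CPM in RGS tumors. It fell 1.66-fold without overlap (log2 fold change -0.73, SE 0.22, edgeR adjusted p = 0.0151). The call was lost without vehicle 8, vehicle 9 or RGS 10, with adjusted p between 0.0716 and 0.0811. *Ccnc* shares 276 exon bases with *Tstd3* on the other strand (107 to 369 counts, against 348 to 1126). *Cdk8* was at 41.5 to 49.1 CPM in vehicle and 43.3 to 46.7 CPM in RGS tumors, and *Cdk19*, its close paralog, at 29.4 to 41.5 and 34.2 to 51.8 CPM.

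In P-TEFb, *Ccnt2* passed the test and *Ccnt1* and *Cdk9* did not. The difference between the 2 cyclins was not tested. *Ccnt2* (cyclin T2) was at 48.2, 48.0 and 49.4 CPM in vehicle and at 36.4, 32.2 and 25.3 CPM in RGS tumors, a 1.55-fold fall (log2 fold change -0.63, SE 0.19, edgeR adjusted p = 0.0155). The vehicle tumors were nearly equal and all above the RGS tumors, and the call was lost without vehicle 8 or RGS 12 (edgeR adjusted p = 0.0654 and 0.0704). *Ccnt1* (cyclin T1), the more abundant of the pair per length, was at 84.9, 94.4 and 87.4 CPM in vehicle and 92.6, 111 and 113 CPM in RGS tumors, with a log2 fold change of 0.25 (95% interval -0.08 to 0.58). *Cdk9* was at 123, 151 and 137 CPM in vehicle and at 161, 195 and 169 CPM in RGS tumors. Each RGS tumor exceeded each vehicle tumor, but the log2 fold change of 0.35 did not pass (SE 0.16, edgeR adjusted p = 0.0900), nor did it in any alternative.

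The kinases of cyclin K, which phosphorylate the polymerase during elongation and sustain long DNA repair genes, gave no call. *Ccnk*, *Cdk12* and *Cdk13* had log2 fold changes of 0.00, 0.27 and 0.21, with 0 of 3 at an unadjusted p under 0.05 and 0 called by edgeR, DESeq2 or limma voom. All 3 had overlapping groups.

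The group of cyclin L, its partner Cdk11b and Cdk10 held calls in both directions. Cyclin L and Cdk11b act with the splicing machinery. *Ccnl2* (cyclin L2, chr4:155812489-155824543) was at 127, 145 and 148 CPM in vehicle and 81.1, 133 and 74.0 CPM in RGS tumors. RGS tumor 11 lay within the vehicle range while the others were well below, and the 1.46-fold fall passed narrowly (log2 fold change -0.54, SE 0.20, edgeR adjusted p = 0.0407). The call was lost without vehicle 8, vehicle 9, RGS 10 or RGS 12. *Ccnl1* (cyclin L1) was at 88.9, 109 and 112 CPM in vehicle and 79.5, 89.2 and 69.0 CPM in RGS tumors (log2 fold change -0.38, edgeR adjusted p = 0.0898), and passed without vehicle 7 at -0.48 (edgeR adjusted p = 0.0185). *Cdk11b* (chr4:155624854-155649938), a partner of cyclin L on the same stretch of chromosome 4 as *Ccnl2*, was at 96.4, 70.2 and 67.2 CPM in vehicle and at 97.4, 120 and 132 CPM in RGS tumors. It rose 1.497-fold (log2 fold change 0.58, SE 0.18, edgeR adjusted p = 0.0184), with vehicle 7 and RGS 10 almost equal. The call was lost without vehicle 8, vehicle 9, RGS 11 or RGS 12, with adjusted p between 0.0628 and 0.102. *Cdk10* was at 35.0 to 41.5 CPM in vehicle and 35.5 to 44.7 CPM in RGS tumors.

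**Figure D3:**
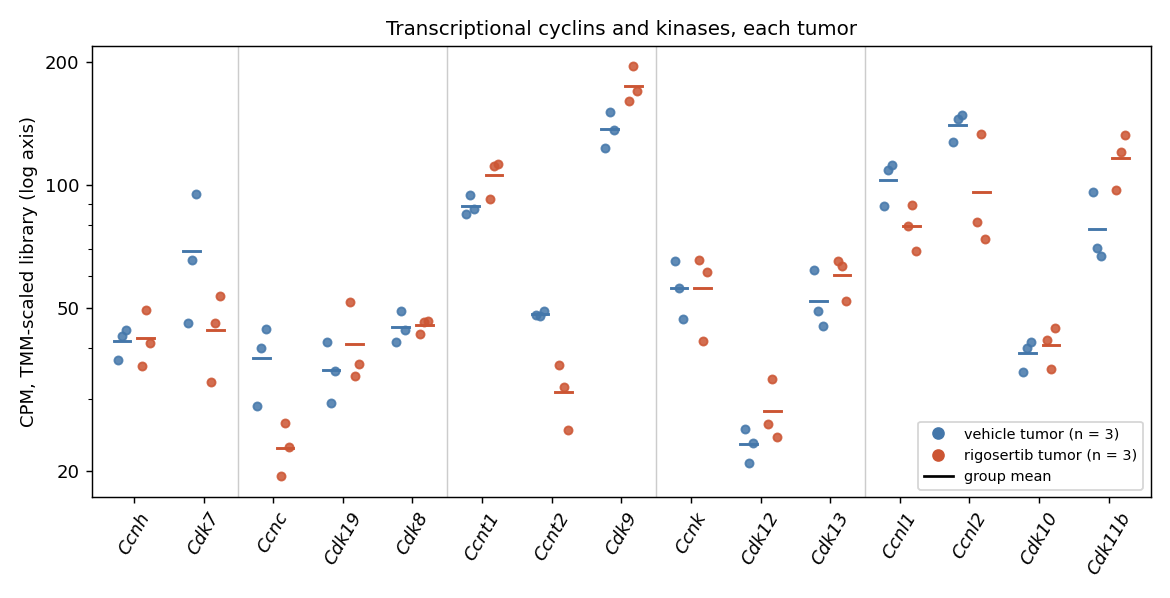
CPM (log axis) of the 15 transcriptional members in each tumor, with vehicle and RGS tumors in separate colors (n = 3 each) and a bar at the group mean. Gray lines part the Cdk7 pair, Mediator, P-TEFb and cyclin K groups and the group of cyclin L, Cdk10 and Cdk11b. *Ccnc* and *Ccnt2* show RGS points below all vehicle points, and *Cdk9* and *Cdk11b* show them above.

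Of the 14 remaining members tested, *Ccng1* fell, and *Ccny* and *Cdk20* rose. *Ccng1* (cyclin G1, chr11:40748552-40755311), a target of p53 that recruits a phosphatase and is not a driver of the cycle, was at 366, 422 and 419 CPM in vehicle and at 197, 156 and 162 CPM in RGS tumors. The groups lay far apart, and the fall was 2.34-fold (log2 fold change -1.23, SE 0.16, edgeR adjusted p = 7.69e-06). *Ccng2* (cyclin G2), its relative, had a log2 fold change of -0.27 (edgeR adjusted p = 0.221), and without vehicle 7 it was -0.39 and passed (edgeR adjusted p = 0.0342). *Cdkn1a*, the p53 target that encodes the kinase inhibitor p21, was at 253 to 277 CPM in vehicle and 274 to 308 CPM in RGS tumors (log2 fold change 0.12, 95% interval -0.19 to 0.42).

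*Ccny* (cyclin Y), a membrane-bound cyclin that partners Cdk14 and Cdk16, was at 114, 88.4 and 85.7 CPM in vehicle and at 178, 138 and 137 CPM in RGS tumors. It rose 1.58-fold without overlap (log2 fold change 0.66, SE 0.17, edgeR adjusted p = 0.00576). Its kinases did not pass the test. *Cdk16* had a log2 fold change of 0.17 (edgeR adjusted p = 0.489) and *Cdk14* of -0.46 (edgeR adjusted p = 0.0828). *Cdk14* passed without RGS 10 at -0.67 (edgeR adjusted p = 0.0311). *Cdk20*, a kinase of the primary cilium, was at 15.1, 15.3 and 14.4 CPM in vehicle and at 19.6, 30.8 and 24.9 CPM in RGS tumors, a 1.68-fold rise (log2 fold change 0.75, SE 0.24, edgeR adjusted p = 0.0210). Each RGS tumor stood above each vehicle tumor, but the call was lost without vehicle 8, vehicle 9 or RGS 11, with adjusted p between 0.0544 and 0.115.

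The remaining tested members, *Ccnyl1*, *Cdk5*, *Cdk17*, *Cdk18*, *Ccndbp1*, *Ccni*, *Ccnj* and *Ccno*, passed neither this test nor any alternative. Their log2 fold changes ran from -0.03 (*Ccndbp1*) to 1.002 (*Cdk18*). *Cdk18* rested on few reads, with 92, 63 and 1 counts in vehicle and 74, 33 and 64 counts in RGS tumors. Beside *Ccna1*, 2 members were left untested for low counts. *Cdk15* had 0 to 4 counts per tumor, and *Ccnjl* had 23 counts in RGS tumor 11 and 0 in each other tumor. *Ccni* and *Ccno* were slightly higher in each RGS tumor than in each vehicle tumor, with log2 fold changes of 0.19 (edgeR adjusted p = 0.359) and 0.39 (edgeR adjusted p = 0.506).

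Compared per length, the order of the most abundant members changed. In vehicle tumors the highest means were those of *Ccnd1* at 421 ± 117 TPM, *Ccng1* at 375 ± 21.9 TPM, *Cdk4* at 299 ± 18.1 TPM and *Ccni* at 291 ± 35.1 TPM (SD, n = 3 each). *Ccnd1* ranged from 315 to 546 TPM across vehicle tumors, so its place above *Ccng1* was within its spread, and *Cdk4* and *Ccni* overlapped. In RGS tumors *Ccni* led at 292 ± 46.7 TPM, followed by *Cdk4* at 201 ± 10.1 TPM, *Ccnd1* at 197 ± 41.7 TPM and *Ccng1* at 142 ± 28.3 TPM (SD, n = 3 each). *Ccni* stood above the other 3 in every RGS tumor, while *Cdk4* and *Ccnd1* overlapped. All 45 members together took 0.371 to 0.389% of counts in vehicle tumors and 0.267 to 0.293% in RGS tumors. These are shares of raw counts without TMM factors, and abundant members such as *Ccnd1* and *Ccng1* weigh most in them. Of the 42 tested members, 21 had a negative and 21 a positive log2 fold change.

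The level of each cyclin was also set against that of the kinase it binds. The ratio of cyclin to kinase TPM was formed for 22 known pairs in each tumor, as a description, since an exact permutation test of 3 tumors against 3 cannot go below p = 0.1. RGS tumors lay below all vehicle tumors for 8 pairs, above for 4 and overlapped for 10. The pairs share genes, so they are not separate counts, and 45.8% of all tested genes taken singly did not overlap either. *Ccnb1* per *Cdk1* was 0.735 to 0.777 in vehicle tumors and 0.226 to 0.658 in RGS tumors, and *Ccna2* per *Cdk1* was 0.478 to 0.759 and 0.282 to 0.459, the latter with a narrow gap. Other pairs of the same genes overlapped, with *Ccnb2* per *Cdk1* at 0.664 to 1.14 and 0.545 to 0.739 and *Ccna2* per *Cdk2* at 2.15 to 2.61 and 1.03 to 2.94. *Ccne2* per *Cdk2* was 1.59 to 2.49 in vehicle and 0.457 to 0.897 in RGS tumors, while *Ccne1* per *Cdk2* overlapped, at 0.805 to 1.09 and 0.964 to 2.92. *Ccnd1* per *Cdk4* overlapped too, at 0.987 to 1.92 and 0.764 to 1.25. In the transcriptional branch, *Ccnc* per *Cdk8* was 1.34 to 1.94 and 0.864 to 1.09, and *Ccnt2* per *Cdk9* was 0.119 to 0.146 and 0.0557 to 0.0845. The ratio of *Ccny* to *Cdk16* was nearly constant within each group, at 1.03 to 1.06 in vehicle and 1.45 to 1.48 in RGS tumors.

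**Figure D4:**
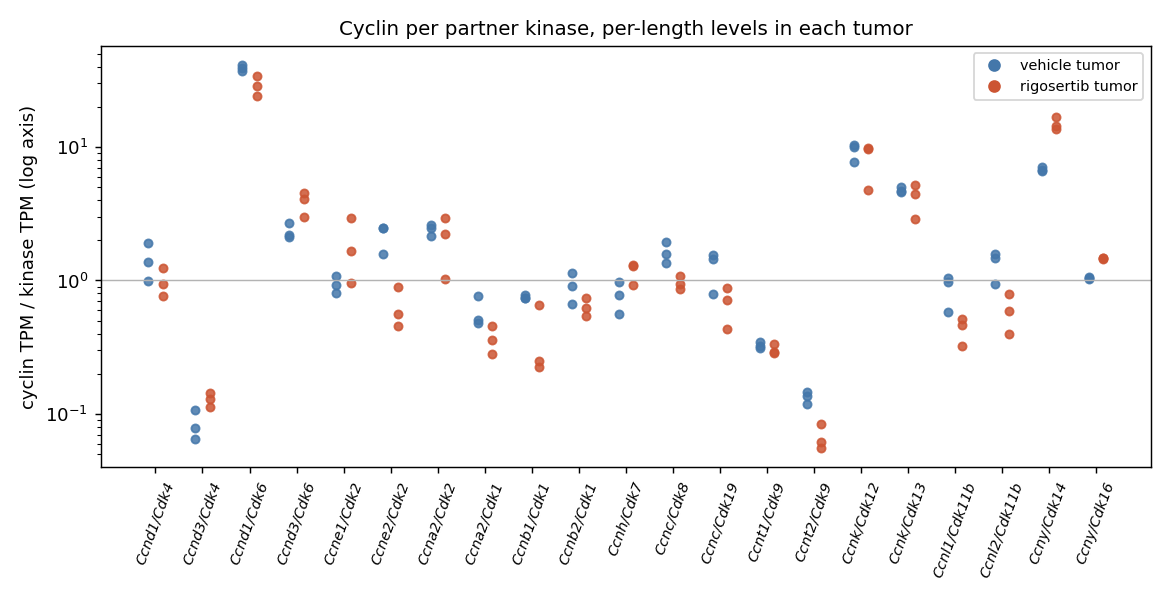
Ratio of cyclin to kinase TPM (log axis) in each vehicle and RGS tumor for 21 of the 22 pairs, leaving out *Ccnd2* per *Cdk4*, whose ratio was at most 0.006515 in any tumor. The RGS points of *Ccne2* per *Cdk2*, *Ccnb1* per *Cdk1* and *Ccnt2* per *Cdk9* lie below the vehicle points, and those of *Ccny* per *Cdk14* and per *Cdk16* lie above.

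The genes that switch these kinases on and off, and those they act on, moved in both directions. Of 43 regulators and targets reported here, 41 were tested, 15 fell (36.6%) and 5 rose (12.2%), with a median log2 fold change of -0.38, where 16.5% of all tested genes fell and 16.3% rose. Among the 10 tested activators reported here, 4 fell (40%). *Cdc25c*, the phosphatase that activates Cdk1, fell 5.63-fold from 13.5 ± 3.32 to 2.41 ± 0.934 CPM (SD, n = 3 each, edgeR adjusted p = 9.49e-05). *Mnat1*, the assembly factor of cyclin H and Cdk7, fell 2.17-fold from 113 ± 21.4 to 51.9 ± 12.2 CPM (SD, n = 3 each, edgeR adjusted p = 2.52e-04). *Cks1b* and *Cks2*, named after their values were seen, fell by less than 2-fold (log2 fold change -0.72 and -0.83, edgeR adjusted p = 0.00365 and 0.0161).

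Among 11 tested inhibitors, 2 fell (18.2%) and 3 rose (27.3%), where 16.5% of all tested genes fell and 16.3% rose. *Cdkn1b*, the gene of the Cdk2 inhibitor p27, was at 111, 149 and 188 CPM in vehicle and at 46.6, 58.2 and 46.9 CPM in RGS tumors. It fell 2.96-fold (log2 fold change -1.57, SE 0.19, edgeR adjusted p = 5.67e-06). *Wee1*, which holds Cdk1 inactive, fell 2.25-fold (log2 fold change -1.17, SE 0.26, edgeR adjusted p = 0.00184). *Hexim1*, which with 7SK RNA keeps P-TEFb inactive, was at 49.9, 50.8 and 49.2 CPM in vehicle and 97.9, 113 and 103 CPM in RGS tumors, a 2.09-fold rise (log2 fold change 1.06, SE 0.16, edgeR adjusted p = 5.01e-05). The other 2 that rose, named after their values were seen, were *Cdkn2c*, the gene of the Cdk4 and Cdk6 inhibitor p18, without overlap (log2 fold change 0.61, SE 0.16, edgeR adjusted p = 0.00773), and *Larp7*, another part of the 7SK particle (0.56, SE 0.21, edgeR adjusted p = 0.0440). *Hexim2*, the relative of *Hexim1*, had -0.75 and did not pass (edgeR adjusted p = 0.416). *Cdkn2a* had 0 counts in all 6 tumors.

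Among 12 tested pocket proteins and factors that these kinases act on, 6 fell (50%) and 0 rose, with 0 higher at an unadjusted p under 0.05 in edgeR. Of all tested genes 16.5% fell and 16.3% rose. The pocket protein gene *Rbl1* (p107) fell 3.57-fold (edgeR adjusted p = 1.19e-04), *Foxm1*, an activator of mitotic genes, fell 3.09-fold (edgeR adjusted p = 1.66e-05), and the repressor *E2f7* fell 2.58-fold (edgeR adjusted p = 0.0114). *Mybl2* and *Lin9*, whose products take part in MuvB complexes at the CHR, fell 2.22-fold and 2.24-fold (edgeR adjusted p = 0.0174 and 0.00594). *Rb1*, the gene of the retinoblastoma protein, was named after its values were seen. It fell with a log2 fold change of -0.90 (SE 0.19, edgeR adjusted p = 0.00105). Among 8 tested genes of cyclin degradation, 3 fell (37.5%) and 2 rose (25%). *Cdc20* and *Fbxo5*, named after their values were seen, fell by less than 2-fold (log2 fold change -0.74 and -0.86, edgeR adjusted p = 0.00999 and 0.0459). *Ambra1*, *Fbxw7* and *Skp2* did not pass the test. *Ube2c*, the ubiquitin-conjugating enzyme of the anaphase-promoting complex, fell 3.12-fold from 59.7 ± 2.54 to 19.2 ± 3.91 CPM (SD, n = 3 each, edgeR adjusted p = 4.90e-06). The 2 that rose, named after their values were seen, were *Fzr1*, the G1 activator of that complex, at 1.90-fold (edgeR adjusted p = 0.00101), and *Fbxo31*, a ligase part known to direct cyclin D1 to degradation, at 1.97-fold (edgeR adjusted p = 1.09e-04).

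**Figure D5:**
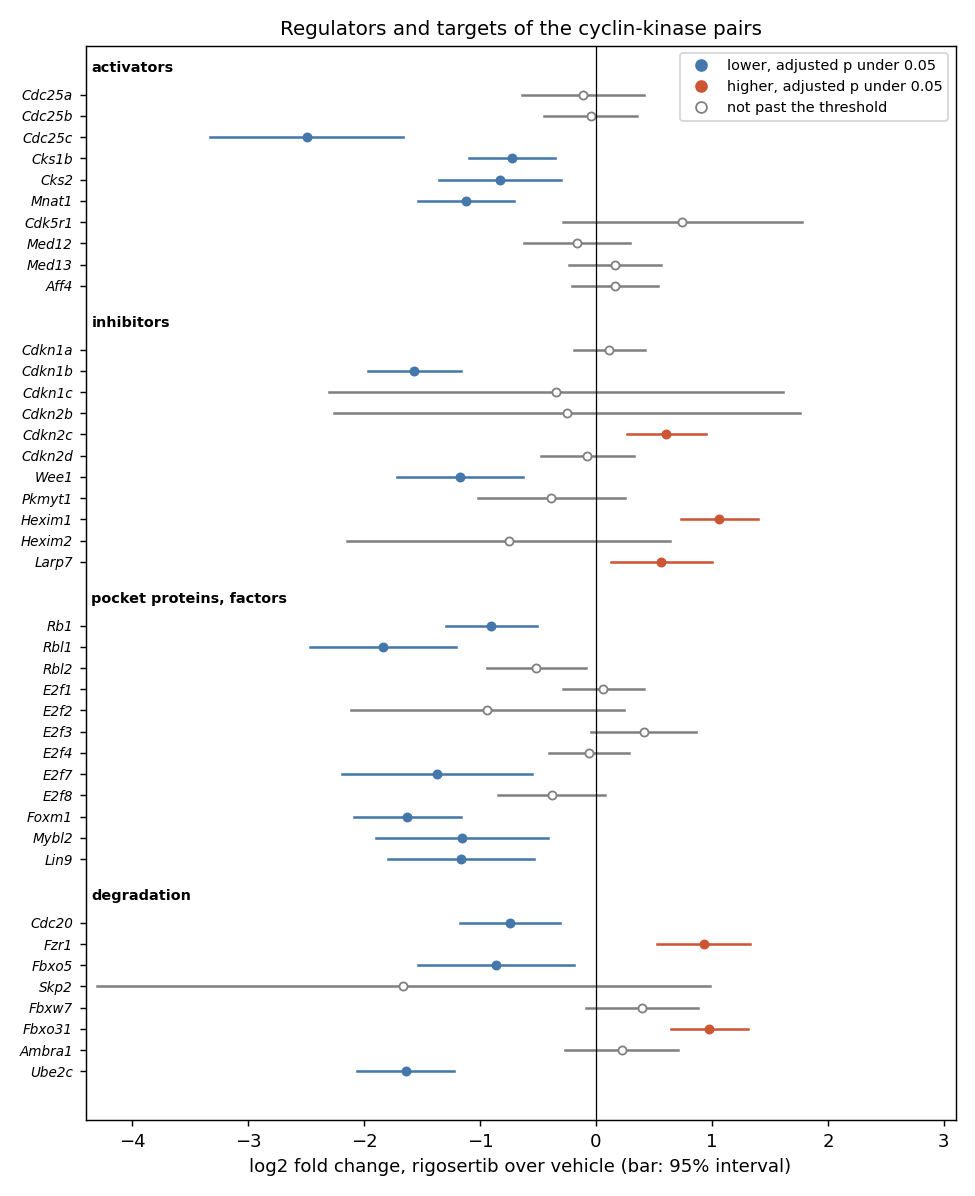
Log2 fold change (x axis, RGS over vehicle) with 95% interval of 41 tested activators, inhibitors, target factors and degradation genes. Filled points passed an adjusted p under 0.05. *Cdc25c* has the largest called fall and *Hexim1* the largest rise of the genes shown, and no target factor is marked as higher.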

How the data were processed

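Bulk RNA was sequenced from 6 YUMM3.3 tumors (3 vehicle, 3 RGS). Raw counts of reads on each gene were deposited by the authors beside gene lengths and positions. Their processing notes name cutadapt 1.18, FastQC 0.11.7, STAR 2.7.1a and featureCounts 1.6.4, and mm10. How strand and multi-gene reads were handled is not given in the sources used here. Positions are those of GRCm38, with 40013 of 40166 identifiers also in GENCODE M21.

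Members, roles and lists were chosen with earlier results of these data known. The 15355 genes whose median count reached 5 in either group were tested in R 4.3.3 with edgeR 4.0.16 (TMM factors, quasi-likelihood F test, Benjamini-Hochberg over all tested genes, threshold 0.05), and the step was tested on simulated data. The SE is the log2 fold change over the square root of F. CPM used TMM-scaled libraries, and TPM the deposited counts and lengths. DESeq2 1.42.0, limma 3.58.1 (voom with quality weights), other scalings and filters, thinning and omission of each tumor were alternatives. Regulators were named if called with a log2 fold change of 1 or more in either direction, and *Cdkn2a* in addition. *Cdkn1a*, *Cdkn2c*, *Larp7*, *Hexim2*, *Fzr1* and *Fbxo31*, outside this rule, were named after their values were seen. So were *Rb1*, *Cks1b*, *Cks2*, *Cdc20*, *Fbxo5*, *Ambra1*, *Fbxw7* and *Skp2*. No list was given a set test. One listed activator is not reported here, for a reason unrelated to its values, and the counts leave it out. Libraries of a group differed beyond counting noise (chi-square per degree of freedom 19.7 to 132). CPM floors cover counting error only.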

Additional observations from a re-analysis of the deposited data

How the results depend on the processing

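*Ccnd1*, *Ccna2*, *Ccne2*, *Cdk2*, *Ccnb1*, *Ccnb2*, *Cdk1*, *Ccng1* and *Ccny* were called in the same direction under all 16 alternatives refitted per gene. Over 672 combinations of member and alternative, 588 kept direction and side of the threshold, 22 lost the call, 15 gained one and 47 turned sign, 0 of these among called members. With a log2 fold change of 1 or more in either direction required in addition, 6 members were lower in place of 12 and 0 higher in place of 3, and the transcriptional members gave 0 lower and 0 higher, by construction of a stricter threshold. With library size only, 1 member was higher and 0 transcriptional members were. Leaving out 1 tumor at a time gave 8 to 15 members lower and 1 to 3 higher, and 0 to 5 transcriptional members lower and 0 to 1 higher, with fewer samples in each fit. Signs turned only for members that were never called. The largest of these in the main test were *Ccne1* (log2 fold change -0.26) and *Cdk19* (0.21). *Ccne1* turned to 0.0569 without RGS 10. The log2 fold changes were, with library size only, -0.00312 (*Cdk17*), -0.143 (*Ccnk*), -0.113 (*Ccnh*), -0.110 (*Ccnj*), -0.124 (*Cdk8*), -0.0721 (*Cdk10*) and -0.141 (*Ccnf*). With upper-quartile factors they were -0.0348 (*Ccnk*), -0.0129 (*Ccnh*), -0.0101 (*Ccnj*), -0.0226 (*Cdk8*) and -0.0342 (*Ccnf*), and with limma voom -0.0321 (*Ccnk*), -0.00531 (*Ccnh*), -0.353 (*Ccnj*), -0.0678 (*Cdk8*) and -0.0941 (*Ccnf*). With thinned counts they were -0.00798 (*Ccnk*), -0.00246 (*Ccnh*), -0.0114 (*Ccnf*) and 0.0643 (*Ccnyl1*), the last being 0.00846 with DESeq2, 0.0103 with RLE factors and 0.00247 with the CPM filter. Leaving out each tumor gave -0.641 to 0.0569 (*Ccne1*), -0.124 to 0.166 (*Ccnk*), -0.111 to 0.121 (*Ccnh*), -0.0871 to 0.0327 (*Ccndbp1*), -0.329 to 0.438 (*Ccnj*), -0.0392 to 0.104 (*Cdk8*), -0.0253 to 0.146 (*Cdk10*), -2.48e-04 to 0.341 (*Cdk19*), -0.218 to 0.316 (*Ccnyl1*) and -0.0896 to 0.101 (*Ccnf*). Apart from the stricter threshold and the omissions, the cause was not tested. No paired analysis was possible because the vehicle and RGS tumors share no replicate numbers. Depth limits *Ccnd2*, *Ccnj*, *Ccno* and *Cdk18*, whose means were under 6 CPM in both groups.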

Other observations

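Several members lie close together in the genome, and their changes differed from pair to pair. On chromosome 13, *Cdk7* (chr13:100702631-100730939) and *Ccnb1* (chr13:100778650-100786570) are near neighbors and both fell, with log2 fold changes of -0.64 and -1.96. On chromosome 4, *Cdk11b* (chr4:155624854-155649938) rose by a log2 fold change of 0.58 while *Ccnl2* (chr4:155812489-155824543) had -0.54. On chromosome 5, *Ccni* (chr5:93181933-93206495) and *Ccng2* (chr5:93267257-93276231) had 0.19 and -0.27, neither past the threshold. The coordinates are those of the deposited table on GRCm38, and whether neighbors move alike across the genome was not tested.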
